A study of Rattus norvegicus with 8 samples.

Results

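Neurofilament and other intermediate filament genes were followed in the somata and processes of rat hippocampal neurons with and without chronic stimulation. The group holds 6 genes that were picked by symbol from a count table of 28909 symbols, namely Nefl, Nefm and Nefh (the light, medium and heavy neurofilament chains), Ina (alpha-internexin), Vim (vimentin) and Nes (nestin). All 6 were among the 14309 genes tested, those whose count was over 20 in 2 or more libraries. Primary neurons of embryonic Sprague-Dawley rats were grown on porous filter inserts whose pores let processes, but not somata, reach the lower side, so that RNA of the upper side (somata) and of the lower side (processes) was collected apart. Cultures received picrotoxin (PTX), an antagonist of the GABA-A receptor that raises network activity, for 48 h from 18 to 20 days in vitro, or vehicle (control). Total RNA depleted of ribosomal RNA was sequenced from 2 libraries each of somata control, somata PTX, processes control and processes PTX. The labels do not say whether the 2 libraries of a condition came from separate cultures or animals, so that every p-value measures the spread between these libraries only, which may be technical.

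Intermediate filaments are the cytoskeletal polymers between actin filaments and microtubules in width. In neurons, NEFL, NEFM, NEFH and INA assemble together into neurofilaments, which fill axons and large dendrites. NEFL is the core subunit, while NEFM and NEFH carry long tails that are heavily phosphorylated along the axon. INA is made early in neuronal development and joins the same filaments in the mature brain. VIM and NES form filaments in neural progenitors and in astroglia, and there they copolymerise with GFAP, the principal astrocyte filament protein. NES does not form filaments by itself and needs VIM or a related partner. Neurofilament proteins are made largely in the cell body and carried along the axon by slow transport.

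The 8 libraries held 12290890 to 18455662 counts. The mitochondrial genome held 22.6% to 26.7% of the counts in somata and 68.5% to 72.5% in processes. Outside it, 9517542 to 11227599 counts remained in somata and 4702054 to 5491237 in processes, so that genes rested on fewer reads in processes. Levels are given as CPM (counts scaled to library size and TMM factor), and a comparison between compartments sets a gene against the average of the tested genes, not against total RNA. With the TMM factors left out, the median over all tested genes of the log2 fold change in processes against somata of control cultures moved from -0.05 to -1.86, and with upper quartile scaling to -0.25. Levels were compared between conditions but not between genes, as transcript lengths were not used here. All 11 neuron markers that were looked up passed the filter on reads, as did 9 of 10 astrocyte markers, 9 of 9 progenitor markers and 9 of 9 oligodendrocyte lineage markers, whereas 0 of 8 microglia markers did. Markers of glia were thus measured beside those of neurons, and in such bulk libraries fewer cells of a type and less RNA per cell cannot be told apart.

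Of the 6 genes, Nes was the one whose level separated the compartments in control cultures, and the neurofilament genes, Ina and Vim were nearer to the median of all genes. In this comparison 1 of the 6 genes was called (adjusted p under 0.05, edgeR's quasi-likelihood test with Benjamini-Hochberg adjustment over all tested genes), against 47.7% of all tested genes, and it was higher in processes, as were 25.8% of all tested genes, while 21.9% were lower. The levels of the 2 compartments did not overlap for 1 of the 6, where 74.9% of all tested genes did not overlap. In PTX cultures 2 of the 6 genes were called, against 49.8% of all tested genes, and both were higher in processes, against 25.7% of all. There the levels did not overlap for 5 of the 6, against 75.9% of all. The median of the 6 log2 fold changes was -0.05 in control and 0.01 in PTX cultures, and that over all tested genes was -0.05 in both. These calls are from the fit without the replicate number. With the replicate number as a block, 1 gene (Nes) was higher and 2 (Nefl and Nefm) were lower in processes of control cultures. In PTX cultures 2 were higher and 2 lower with the block. The shares of all tested genes called with the block were 57.8% and 59.5%.

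**Figure D1:**
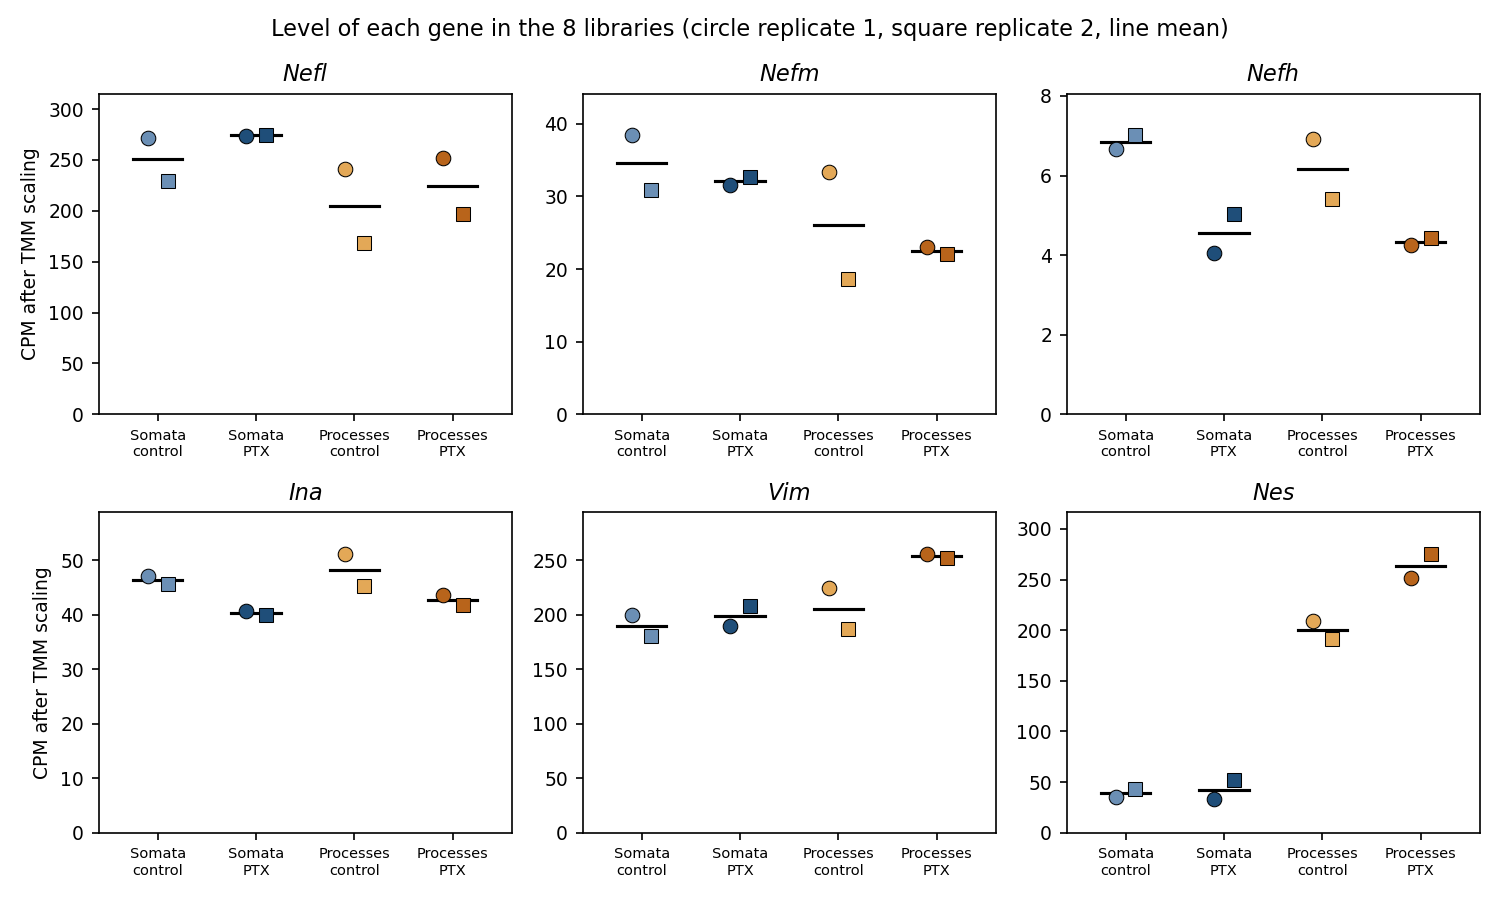
Level of each of the 6 genes in each of the 8 libraries, in CPM after TMM scaling on a linear axis that starts at 0; circles are replicate 1, squares replicate 2 and lines the mean of the 2. Nes lies between 191 and 275 CPM in processes and between 32.9 and 51.8 CPM in somata, and Nefh lies between 4.06 and 5.04 CPM in PTX libraries and between 5.40 and 7.01 CPM in control libraries.

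Nefl encodes the subunit on which neurofilaments are built. In somata its level was 272 and 229 CPM in control libraries and 273.9 and 274.2 CPM in PTX libraries. In processes it was 241 and 168 CPM in control libraries and 252 and 196 CPM in PTX libraries. Replicate 1 was the higher library in both process conditions, and its 2 process libraries lay within the range of the somata controls. The log2 fold change in processes against somata was -0.29 in control (SE 0.178, adjusted p = 0.2, quasi-likelihood test) and -0.29 in PTX cultures (SE 0.177, adjusted p = 0.196). Once the replicate number entered as a block, these differences were -0.30 and -0.31 and had adjusted p = 0.0175 and 0.0152. With single libraries left out, the control difference ranged from -0.57 to -0.05, the lowest being without replicate 1 of processes control.

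Nefm encodes the medium chain, and its gene lies next to Nefl in the later RefSeq assembly GRCr8, with 1 annotated gene, the pseudogene Slc25a3-ps1, between them. Its level was 38.4 and 30.9 CPM in somata control, 31.6 and 32.6 CPM in somata PTX, 33.3 and 18.7 CPM in processes control, and 23.1 and 22.0 CPM in processes PTX. The processes control libraries were the most spread, and the processes PTX libraries lay below all 4 somata libraries. The log2 fold change in processes against somata was -0.41 in control (SE 0.212, adjusted p = 0.134, quasi-likelihood test) and -0.51 in PTX cultures (SE 0.214, adjusted p = 0.0683). Both differences passed with the replicate block (-0.42 and -0.51), with adjusted p = 0.0134 and 0.00358. One library weighed on the control value, which was -0.89 without replicate 1 of processes control (adjusted p = 0.00393) and -0.06 without replicate 2.

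The heavy chain gene, Nefh, was counted with few reads, 113 to 179 per library in somata and 37 to 62 in processes, which gives a counting error of 7.47% to 9.41% of the value in somata and of 12.7% to 16.4% in processes. Its level was 6.67 and 7.01 CPM in somata control and 6.91 and 5.40 CPM in processes control. The 2 compartments overlapped, with a log2 fold change of -0.15 (SE 0.2, adjusted p = 0.562). In PTX cultures it was 4.06 and 5.04 CPM in somata and 4.25 and 4.42 CPM in processes, a log2 fold change of -0.06 (SE 0.214, adjusted p = 0.821). Its differences between compartments changed sign without single libraries and ranged from -0.34 to 0.01 in control and from -0.21 to 0.10 in PTX cultures.

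Ina was measured at 47.1 and 45.6 CPM in somata control, 40.6 and 40.0 CPM in somata PTX, 51.2 and 45.2 CPM in processes control, and 43.6 and 41.7 CPM in processes PTX. Replicates lay close together in somata, and the 4 conditions covered a narrow range. The log2 fold change in processes against somata was 0.06 in control (SE 0.107, adjusted p = 0.686) and 0.08 in PTX cultures (SE 0.108, adjusted p = 0.551), and it was negative with upper quartile scaling (-0.15 and -0.10) and with library size only (-1.76 and -1.75).

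For Vim, the filament gene of immature and non-neuronal cells, levels were 199.8 and 180.5 CPM in somata control and 190.1 and 208 CPM in somata PTX. In processes they were 224 and 187 CPM in control and 256 and 252 CPM in PTX libraries. The processes PTX libraries were the highest of the 8, and the other 3 conditions overlapped. In control cultures the log2 fold change in processes against somata was 0.11 (SE 0.123, adjusted p = 0.473), and it was negative with upper quartile scaling (-0.09) and with library size only (-1.70). In PTX cultures Vim was higher in processes (log2 fold change 0.35, SE 0.123, adjusted p = 0.0359, quasi-likelihood test), a value that was -1.48 with library size only. That call was lost with upper quartile scaling (0.17, adjusted p = 0.255), with at least 10 reads required in every library (0.28, adjusted p = 0.0735) and without any 1 of the 4 PTX libraries, where the log2 fold change ranged from 0.29 to 0.42 and adjusted p from 0.0612 to 0.196.

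Nes, the filament gene of neural progenitors and reactive astroglia, stood apart from the other 5 genes. Its level was 35.6 and 43.0 CPM in somata control and 32.9 and 51.8 CPM in somata PTX. In processes it was 209 and 191 CPM in control and 252 and 275 CPM in PTX libraries, so that the lowest process library was above the highest somata library. The level in processes was 5.09-fold that in somata of control cultures (log2 fold change 2.35, SE 0.194, adjusted p = 4.95e-06, quasi-likelihood test) and 6.23-fold in PTX cultures (2.64, SE 0.195, adjusted p = 2.37e-06). These log2 fold changes lay at percentiles 98.9 and 99.4 of all tested genes, and stayed positive with library size only (0.54 and 0.82). Leaving out single libraries gave 2.22 to 2.49 in control and 2.35 to 3.01 in PTX cultures.

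Markers of other cells were read beside Nes, and they were mixed. Gfap, its astrocyte partner, was at 1588 and 1781 CPM in somata control and 11110 and 9382 CPM in processes control, a log2 fold change of 2.60 (SE 0.2, adjusted p = 3.15e-06), which was 0.79 with library size only. The summed level of the 9 tested astrocyte markers, Gfap among them, was 3975 to 4394 CPM in somata control and 13150 to 14680 CPM in processes control. Of these 9 genes, 4 were higher and 2 (Slc1a3 and Gja1) lower in processes, where 25.8% of all tested genes were higher and 21.9% lower. Both lower calls were lost without single libraries (adjusted p up to 0.0844 for Slc1a3, without replicate 2 of somata control, and up to 0.0921 for Gja1, without replicate 1 of somata control). Without Gfap the sum of the other 8 was 2386 to 2614 CPM in somata and 3570 to 3767 CPM in processes. The summed level of the 9 progenitor markers was 330.8 to 464.7 CPM in somata and 701.3 to 967.7 CPM in processes of control cultures, and 3 of the 9 were higher and 0 lower. Fabp7 made up most of that sum, and the other 8 genes together were at 131 to 149.2 CPM in somata and 179.9 to 185.8 CPM in processes. With library size only, 1 astrocyte marker was higher and 7 lower, and 0 progenitor markers were higher and 8 lower. Of the 11 neuron markers, 2 were higher, Rbfox3 (not called without replicate 2 of somata control, adjusted p = 0.0698, or replicate 1 of processes control, 0.0678) and the dendrite gene Map2 (log2 fold change 2.30, SE 0.142, adjusted p = 1.04e-06), and 7 were lower, with a median of -0.57, and with library size only 1 was higher and 10 lower. The part of these cells in the level of Nes was not tested.

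**Figure D2:**
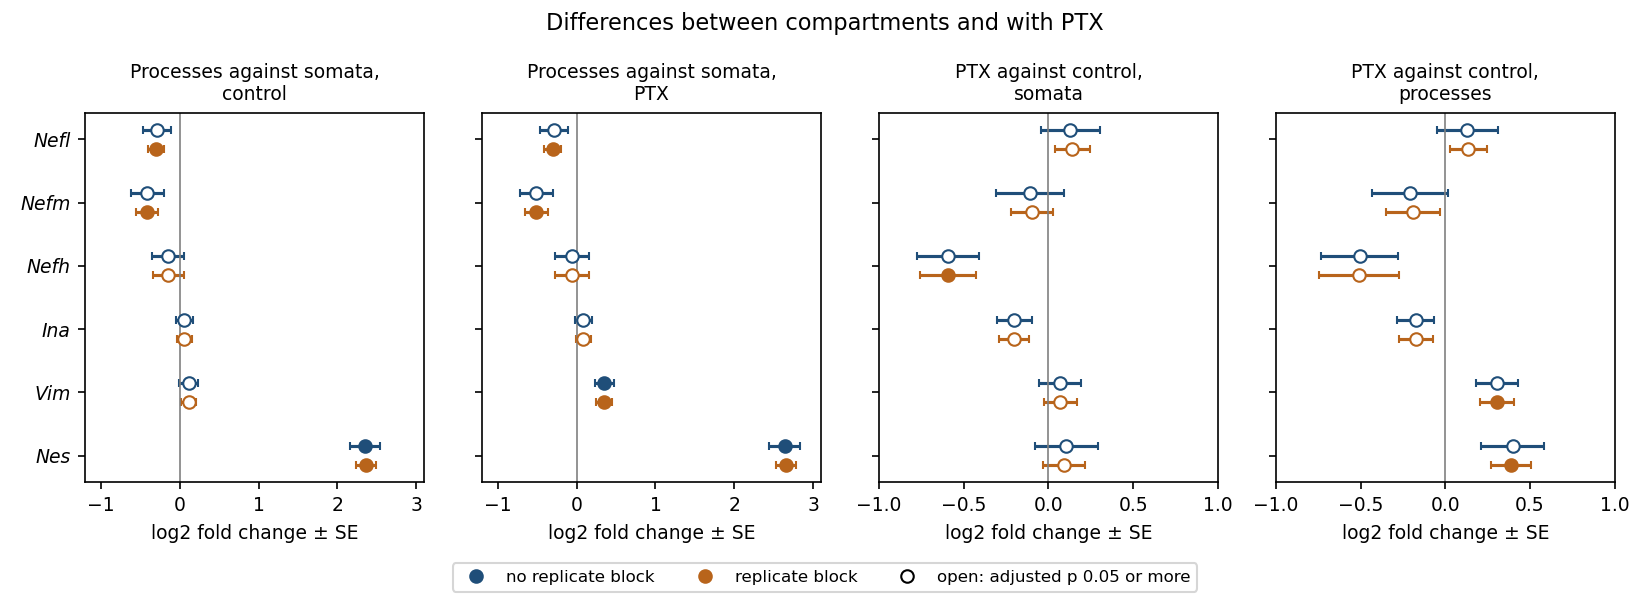
Log2 fold changes of the 6 genes (rows) with their standard errors in processes against somata of control and of PTX cultures, and in PTX against control of somata and of processes; blue is the fit without and orange the fit with the replicate number as a block, and filled points have an adjusted p under 0.05. Nes is at 2.35 and 2.64 in the 2 compartment panels, and the PTX panels, drawn on a narrower axis, run from -0.59 for Nefh in somata to 0.40 for Nes in processes.

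In the fit without the replicate block, PTX treatment changed none of the 6 genes past the threshold in either compartment. With the block, Nefh passed in somata and Vim and Nes in processes. In somata 0 of the 6 were called by the quasi-likelihood test, against 3.59% of all tested genes, and in processes 0 of the 6, against 3.74%. Without adjustment, the p of the quasi-likelihood test in edgeR was under 0.05 for 1 of the 6 in somata (Nefh) and for 2 in processes (Nefh and Vim), against 15.6% and 16.6% of all tested genes. DESeq2 called 0 of the 6 in either compartment, while the likelihood ratio test called Nefh in somata (adjusted p = 0.0466). PTX and control libraries did not overlap for 3 of the 6 genes in somata, against 49% of all tested genes, and for 4 of the 6 in processes, against 42.4%. The median log2 fold change of the 6 was -0.02 in both compartments, and that of all tested genes was -0.01. With the replicate block, 1 of the 6 was called in somata, against 14% of all tested genes, and 2 in processes, against 11.2%.

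Nefh had the lowest fold change of the 6 with PTX in both compartments. In somata both PTX libraries lay below both controls, with a log2 fold change of -0.59 (SE 0.183, adjusted p = 0.121, quasi-likelihood test). In processes both PTX libraries again lay below both controls, with -0.51 (SE 0.228, adjusted p = 0.299). These values lay at percentiles 3.32 and 10.1 of all tested genes. With the replicate block, the value in somata was -0.59 (SE 0.166, adjusted p = 0.0169) and that in processes did not pass (adjusted p = 0.194). With single libraries left out, its lowest and highest values were -0.76 and -0.45 in somata, and -0.67 and -0.32 in processes.

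For the other neurofilament genes the PTX differences were within the spread of the libraries or small. Nefl had a log2 fold change of 0.13 in somata (SE 0.176, adjusted p = 0.826) and of 0.13 in processes (SE 0.179, adjusted p = 0.786). For Nefm the values were -0.11 in somata (SE 0.199, adjusted p = 0.878) and -0.21 in processes (SE 0.226, adjusted p = 0.714), and the latter was 0.27 without replicate 1 of processes control. The PTX libraries of Ina lay below the controls on both sides of the filter, and the log2 fold changes were -0.20 (SE 0.104, adjusted p = 0.409) and -0.18 (SE 0.111, adjusted p = 0.482).

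Vim and Nes were higher in both PTX libraries than in both controls of processes, and overlapped between PTX and control in somata. In processes the log2 fold change of Vim was 0.30 (SE 0.124, adjusted p = 0.246) and that of Nes was 0.40 (SE 0.184, adjusted p = 0.313, quasi-likelihood test). With the replicate block, both passed in processes, Vim with 0.31 (SE 0.1, adjusted p = 0.0497) and Nes with 0.39 (SE 0.119, adjusted p = 0.0363). In somata the values were 0.07 for Vim (SE 0.122, adjusted p = 0.877) and 0.11 for Nes (SE 0.187, adjusted p = 0.874), and without replicate 2 of somata PTX that of Nes was -0.26.

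Whether PTX acted differently on these genes in the 2 compartments was tested by the interaction, in which the effect in somata is subtracted from the effect in processes. The quasi-likelihood test called 0 of the 6 genes and 0% of all tested genes, while 572 of the 14309 had an unadjusted p under 0.05 and the likelihood ratio test and DESeq2 called 4 genes each, with no member among them. The interaction was 0.24 for Vim, 0.29 for Nes, -0.10 for Nefm, 0.09 for Nefh, 0.02 for Ina and 0.00 for Nefl. With the replicate block, 0 of the 6 were called, against 0.105% of all tested genes, and the adjusted p of the 6 ranged from 0.661 to 0.999. In the compartment comparisons, the block gave 3 called genes of the 6 in control cultures, against 57.8% of all tested genes, and 4 in PTX cultures, against 59.5%.

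Ratios of reads within a library do not depend on the scaling between libraries and describe the mixture of transcripts, not of proteins. They were not tested. For every 100 reads of Nefl, a library held 13.5 to 14.1 reads of Nefm in somata control and 11.6 to 11.9 in somata PTX. The corresponding numbers were 11.1 to 13.8 in processes control and 9.17 to 11.2 in processes PTX, so that PTX and control overlapped in processes and not in somata. Reads of Nefh per 100 reads of Nefl were 2.45 to 3.06 in somata control and 1.48 to 1.84 in somata PTX. In processes they were 2.87 to 3.21 in control and 1.69 to 2.25 in PTX libraries. Reads of Nefh relative to Nefl were thus lower in all 4 PTX libraries than in all 4 controls. The mean log2 differences were -0.73 in somata and -0.64 in processes, where Nefh had 37 to 62 reads. Nefl itself had a log2 fold change with PTX of 0.13 in each compartment, which was not called. The share of all ratios that part in this way was not computed. Of single genes, 49% did not overlap between PTX and control in somata and 42.4% in processes. Reads of Ina per 100 reads of Nefl were 17.3 to 19.9 in somata control, 14.6 to 14.8 in somata PTX, 21.2 to 26.9 in processes control and 17.3 to 21.2 in processes PTX, which placed processes above somata within each treatment.

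Relative to Nefl, Vim and Nes took a larger place in processes, as the neuronal gene Ina did. The mean log2 difference between processes and somata of control cultures was 0.42 for Vim, 2.66 for Nes and 0.36 for Ina. These ratios include the log2 fold change of Nefl itself, which was -0.29. By their own levels Vim (0.11) and Ina (0.06) were not called between these compartments. Reads of Vim per 100 reads of Nefl were 73.5 to 78.8 in somata control and 93.0 to 111 in processes control. Reads of Nes per 100 reads of Nefl were 13.1 to 18.8 in somata control and 86.6 to 114 in processes control. Nes also parted from its partner Vim, with 17.8 to 23.8 reads per 100 reads of Vim in somata control and 93.1 to 102 in processes control, a mean log2 difference of 2.24, and of 2.32 in PTX cultures.

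Against Gfap, the compartments of the 2 progenitor filament genes looked different, a comparison that was chosen after values were seen. Reads of Nes per 100 reads of Gfap were 2.24 to 2.41 in somata control and 1.88 to 2.04 in processes control, a log2 difference of -0.25. In PTX libraries they were 3.11 to 3.39 in somata and 3.13 to 3.27 in processes, so that both compartments were higher with PTX, by 0.48 and 0.71 on the log2 scale. Reads of Vim per 100 reads of Gfap were 10.1 to 12.6 in somata control and 1.99 to 2.02 in processes control. With PTX the ratio of Vim to Gfap was 13.6 to 18 in somata and 2.86 to 3.33 in processes, above the controls in both. Gfap itself had a log2 fold change with PTX of -0.38 in somata (SE 0.189, adjusted p = 0.378) and of -0.31 in processes (SE 0.188, adjusted p = 0.458).

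**Figure D3:**
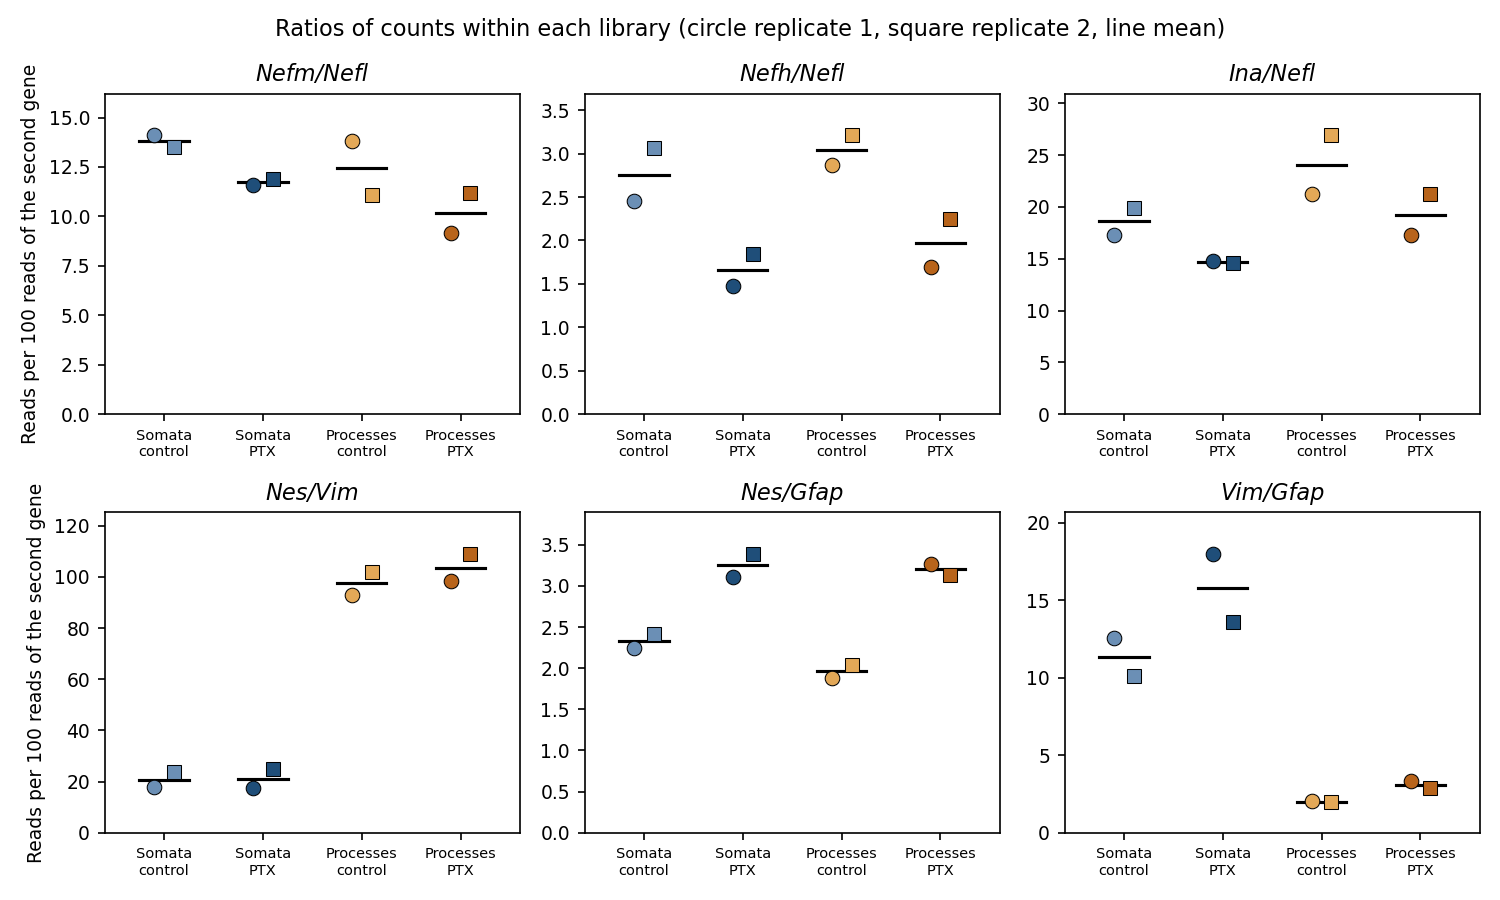
Reads of the first gene per 100 reads of the second in each library, on linear axes that start at 0; circles are replicate 1, squares replicate 2 and lines the mean. Nefh per 100 reads of Nefl lies between 1.48 and 2.25 in the 4 PTX libraries and between 2.45 and 3.21 in the 4 controls, and Nes per 100 reads of Gfap lies between 3.11 and 3.39 with PTX and between 1.88 and 2.41 without.

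Among 19 other intermediate filament genes, 11 were tested. In processes against somata of control cultures, 2 were higher (Gfap and Synm) and 2 lower (Krt8 and Iffo1), against 25.8% and 21.9% of all tested genes, and with library size only 2 were higher and 9 lower. Gfap had the highest fold change of the list. Krt8, an epithelial keratin, had the lowest, with 63 and 43 reads in somata and 5 and 2 reads in processes (log2 fold change -2.42, SE 0.548, adjusted p = 0.00432). With PTX, 1 of the 11 fell in somata and 1 in processes, against 1.5% and 2.1% of all tested genes, and it was Synm in both. Krt8 also rose in somata with the replicate block (0.66, adjusted p = 0.0482). Synm encodes synemin, a large filament protein that, as nestin does, needs VIM or another partner to assemble. Its level was 58.1 and 53.0 CPM in somata control and 39.3 and 38.6 CPM in somata PTX. In processes it was 291 and 280.2 CPM in control and 146 and 142 CPM in PTX libraries, with no overlap in either compartment. The log2 fold change with PTX was -0.51 in somata (SE 0.104, adjusted p = 0.0226, quasi-likelihood test) and -0.99 in processes (SE 0.104, adjusted p = 0.00179). The call in somata was lost without any 1 of the 4 somata libraries (adjusted p from 0.0935 to 0.185) and with library size only (adjusted p = 0.0878), and the call in processes held in these settings. The difference between the 2 PTX effects was -0.48 (SE 0.146) and had an adjusted p of 1.

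Synm was also higher in processes than in somata, as Nes was. In control cultures the log2 fold change of Synm in processes against somata was 2.36 (SE 0.107, adjusted p = 4.46e-07), close to the 2.35 of Nes, and in PTX cultures it was 1.89 (SE 0.107, adjusted p = 6.9e-07), beside 2.64 for Nes, and the 2 genes were not tested against each other. With library size only, the values of Synm were 0.56 and 0.06.

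Genes that link, modify, remove or carry neurofilaments were read in the same comparisons. Of all tested genes, 25.8% were higher and 21.9% lower in processes of control cultures. With PTX, 3.59% of all tested genes were called in somata and 3.74% in processes, and with the replicate block 14% and 11.2%. Of 4 tested plakins and linkers, which tie filaments to other structures, 2 were higher in processes of control cultures, namely Plec (plectin, log2 fold change 0.56) and Dst (dystonin, 0.46), against 25.8% of all tested genes, and with upper quartile scaling or library size only 0 were higher. The call of Plec was lost without replicate 1 of somata control or of processes control (adjusted p = 0.0706 and 0.0703), and that of Dst without replicate 1 of somata control (adjusted p = 0.0617). Dsp had the highest value (0.57, SE 0.899, adjusted p = 0.629) from at most 25 reads per library, and Macf1 the lowest (-0.06, SE 0.119, adjusted p = 0.711). With PTX 0 of the 4 were called, and with the replicate block 1 fell in each compartment, which was Plec, with -0.34 in somata (adjusted p = 0.0353) and -0.53 in processes (adjusted p = 0.00276).

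The 4 genes of filament turnover, which encode ubiquitin ligases or their adaptors, were all higher in processes of control cultures by TMM scaling, against 25.8% of all tested genes, 2 were higher with upper quartile scaling, and lower by library size only. They ranged from Trim2 (log2 fold change 0.38, SE 0.108; adjusted p = 0.104 without replicate 2 of somata control and 0.073 without replicate 2 of processes control), whose product ubiquitinates NEFL, to Fbxo2 (1.20, SE 0.169). With PTX 0 of the 4 were called in either compartment. Of 17 kinase and phosphatase genes that act on neurofilament tails, 7 were higher and 1 lower in processes of control cultures, shares to be read against the 25.8% and 21.9% of all tested genes, and the counts were 3 and 3 with upper quartile scaling, and 0 and 17 with library size only. Cdk5r2, which encodes an activator of the tail kinase CDK5, had the highest value (1.39, SE 0.157, adjusted p = 4.28e-05) and Ppp2ca, the catalytic subunit of the phosphatase PP2A, the lowest (-0.51, SE 0.116, adjusted p = 0.00449). With PTX 0 of the 17 were called in either compartment. With the replicate block 2 rose in somata, and in processes 1 rose and 1 fell.

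Among 10 genes of the motors that carry neurofilaments, 6 were higher and 2 lower in processes of control cultures, against 25.8% and 21.9% of all tested genes, and 1 was higher and 7 lower with library size only. Kif5b, a kinesin-1 heavy chain for transport away from the soma, was at 118 and 116 CPM in somata control and 539.7 and 612 CPM in processes control, a log2 fold change of 2.29 (SE 0.13, adjusted p = 7.95e-07), which was 0.49 with library size only. The lowest was Dync1i1, a dynein intermediate chain, with -0.81 (SE 0.121, adjusted p = 0.000298). With PTX 0 of the 10 were called, and with the replicate block 1 fell in somata and 2 rose and 1 fell in processes.

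**Figure D4:**
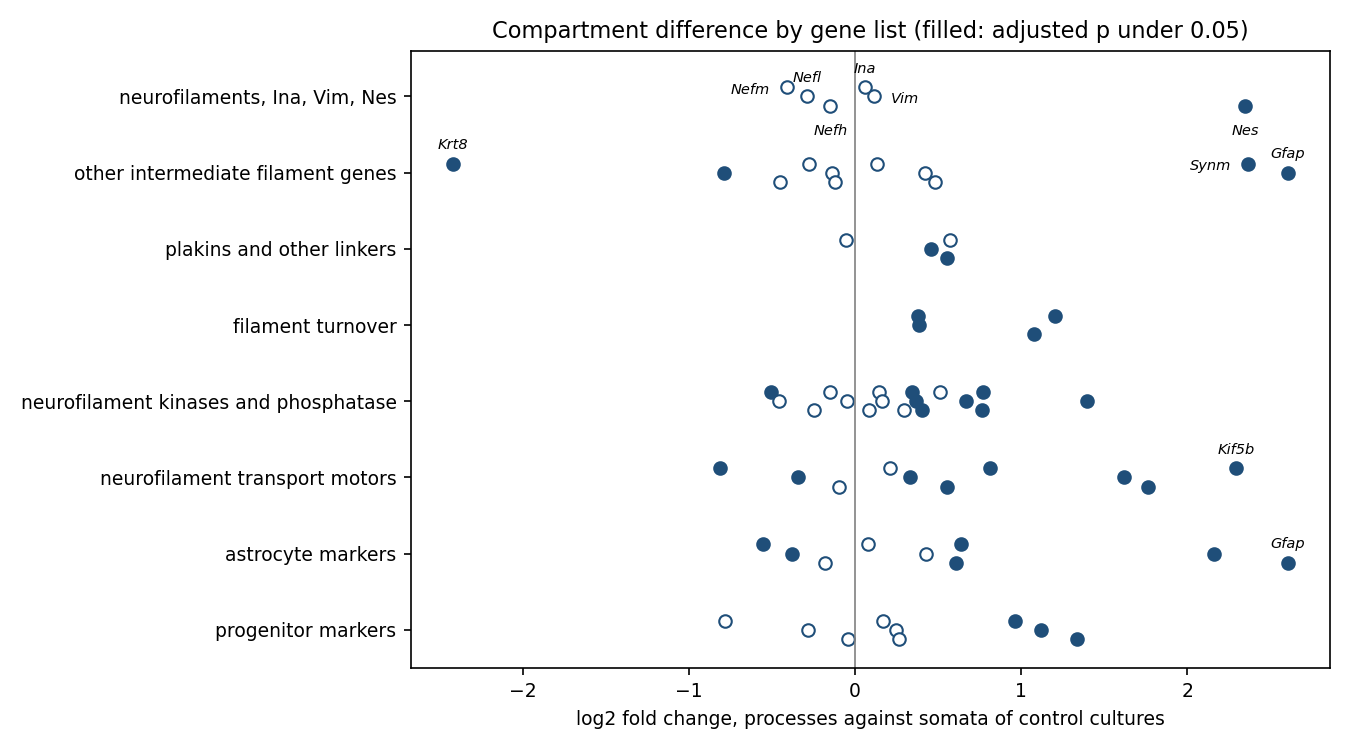
Log2 fold change in processes against somata of control cultures after TMM scaling, 1 point per tested gene in 8 gene lists (rows), with a small vertical offset for legibility; filled points have an adjusted p under 0.05. The neurofilament genes, Ina and Vim lie between -0.41 and 0.11, while Nes lies at 2.35 beside Synm at 2.36, Gfap at 2.60 and Kif5b at 2.29; Gfap stands in 2 lists.

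Cell type markers were read for PTX, since Vim and Nes are shared by several cell types. Of all tested genes, 3.59% were called with PTX in somata and 3.74% in processes, and with the replicate block 14% and 11.2%. Of 9 tested cell division genes, 1 rose with PTX in somata and 3 rose in processes, and their summed level was 136.9 to 172 CPM in processes control and 267.4 to 283.7 CPM in processes PTX. Cdk1, the mitotic kinase, rose by a log2 of 0.98 in somata (SE 0.198, adjusted p = 0.0221) and of 1.66 in processes (SE 0.257, adjusted p = 0.00692), and the DNA topoisomerase gene Top2a rose by 1.01 in processes (SE 0.144, adjusted p = 0.00472), as did the cyclin gene Ccnb1 by 1.27 (SE 0.245, adjusted p = 0.0203). Calls were lost without single libraries, for Cdk1 in somata without either control or replicate 2 of PTX (adjusted p from 0.14 to 0.182) and in processes without replicate 1 of control or of PTX (0.0777 and 0.0522), for Top2a without replicate 1 of processes control (0.0613), and for Ccnb1 without that library or either PTX library of processes (0.0752 to 0.165). Under the block, 5 of the 9 rose in somata and 7 in processes. Of the 9 progenitor markers 0 were called with PTX in either compartment (1 fell in somata with the block). Their summed level in processes was 564.8 to 905.3 CPM with PTX against 701.3 to 967.7 CPM in control. Without Fabp7 the other 8 were lower there with PTX, at 167.9 to 179.7 CPM against 179.9 to 185.8 CPM. In somata the sum of these 8 overlapped, at 118.7 to 137.8 CPM with PTX and 131 to 149.2 CPM in control. Of the 9 astrocyte markers, Gja1, a gap junction gene, fell in somata (log2 fold change -0.61, adjusted p = 0.0215) and 0 were called in processes. With the block 2 fell in somata and 1 rose and 1 fell in processes. The astrocyte sum in processes was 11240 to 12500 CPM with PTX against 13150 to 14680 CPM in control. Without Gfap that sum overlapped, at 3538 to 3698 CPM with PTX and 3570 to 3767 CPM in control. The call of Gja1 was lost without either somata control or replicate 1 of somata PTX (adjusted p from 0.105 to 0.215). The endothelial receptor gene Kdr rose in somata (1.41, adjusted p = 0.0102), as 1 of 6 tested vascular and fibroblast markers (3 with the block), a call lost without replicate 2 of somata control (adjusted p = 0.123) or replicate 1 of somata PTX (0.0778). The part of these cells in the PTX values of Vim and Nes was not tested.

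Among the 11 neuron markers, 2 rose and 1 fell with PTX in somata and 2 rose in processes, where 3.59% and 3.74% of all tested genes were called. Under the block, 3 rose and 5 fell in somata and 4 rose and 6 fell in processes. The shares of all tested genes called under the block were 14% and 11.2%. The genes of GABA synthesis Gad1 (0.82, adjusted p = 0.0247) and Gad2 (0.92, adjusted p = 0.0328) rose in somata, and Rbfox3, which encodes the neuronal nuclear protein NeuN, fell there (-0.67, adjusted p = 0.0221). In processes Gad2 (0.92, adjusted p = 0.0384) and Slc17a7, a vesicular glutamate transporter gene (0.73, adjusted p = 0.0172), rose. In somata the calls of Gad1 and Gad2 were lost without replicate 2 of control or replicate 1 of PTX (adjusted p from 0.186 to 0.277), and that of Rbfox3 without any 1 of the 4 libraries (0.0878 to 0.198). In processes that of Gad2 was lost without any 1 of the 4 libraries (0.0524 to 0.222) and that of Slc17a7 without replicate 2 of control or either PTX library (0.0613 to 0.105). The summed level of the neuron markers was 2229 to 2440 CPM in somata control and 2079 to 2329 CPM in somata PTX. In processes the sum was 5561 to 5833 CPM in control and 4424 to 5102 CPM with PTX. Map2 made up most of the sum in processes, at 4693 and 4524 CPM in control and 3935 and 3369 CPM with PTX. Of the 11 log2 fold changes with PTX in processes, 4 were positive and 7 negative. The part of the summed level in the values of Nefh and Ina was not tested. Of the 9 oligodendrocyte lineage markers 0 were called with PTX in either compartment, and 1 fell in each with the block.

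The genes whose level followed each filament gene most closely over the 8 libraries were listed by Pearson's r of log2 CPM among 10202 genes whose mean level was 5 CPM or more, as a description without a test, because libraries share a compartment, a treatment and a replicate number. Hid1 (r = 0.96) was closest to Nefl, followed by Loxl1 and Enoph1. For Nefm the closest were Dclk2 (r = 0.96), Pcdhgb7 and Nprl3. Ppp1r21 (r = 0.98), Wasf1 and Osbpl5 were closest to Nefh, and Camk2b (r = 0.98) and Faah to Ina. Vrk1 (r = 0.96), Igsf21 and Sap18 were closest to Vim, and Ctbp1 (r = 0.997), AABR07052430.1 and LOC100360057 to Nes. No 2 of the 6 filament genes shared a gene in these lists.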

How the data were processed

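RNA of 8 libraries was measured, 2 for each of 4 conditions taken from the sample titles. The authors trimmed the reads with Trimmomatic, assigned them to Ensembl genes by featureCounts and added up genes of the same symbol. The methods name Subread subjunc as the aligner and the submitters' processing notes name STAR, with genome build Rnor_6.0. The deposited values are whole-number counts without normalization. A strand setting for counting is not given in the sources used here, so reads of antisense or overlapping genes cannot be separated. The authors also deposited their own comparisons (fold changes, p-values and FDR), which were not used.

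Kept were 14309 of 28909 symbols, with a count over 20 in 2 or more libraries. TMM factors, glmQLFit and glmQLFTest of edgeR 4.0.16 in R 4.3.3 were applied to all 8 libraries with 1 coefficient per condition. P-values were adjusted by Benjamini-Hochberg within each of 5 contrasts (threshold 0.05). An SE is the size of the log2 fold change over the root of its F statistic, and log2 CPM used a prior count of 2. Totals were 12290890 to 18455662 counts per library, and counting errors cover counting only. The test was also run on simulated counts that held no replicate effect, so that run could not address the pairing of replicates.

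Replicate numbers come from the titles, and the labels do not say what they mark. Differences between replicates 2 and 1 across genes correlated with r between 0.274 and 0.54 over all pairs of conditions, so the numbers were taken to pair the libraries. A replicate block lowered the coefficient of variation from 11.5% to 6.77%. Other alternatives were DESeq2 1.42.0, the likelihood ratio test, upper quartile scaling, library size only, removal of the mitochondrial genome, no filter, a minimum of 10 reads in each library, only the 4 libraries of a comparison, and leaving out each library in turn.

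The members and gene lists were chosen with earlier results of these data known. Named are the 6 members, genes of the other lists called with PTX, the highest and lowest compartment difference of each filament-related list, the 3 genes most like each member, and Gfap. Map2, Iffo1, Plec, Dst, Slc1a3 and Fabp7 were added after values were seen. Some single genes that meet this rule are not reported here. Sequences were not used here.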

Additional observations from a re-analysis of the deposited data

How the results depend on the processing

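Counts of called genes among the 6 depended on the setting in 4 of the 5 comparisons. With PTX in somata, where 0 were called, the likelihood ratio test and the replicate block called 1 each. With PTX in processes, 0 became 1 without the filter and 2 with the replicate block. In processes against somata of control cultures, 1 became 3 with upper quartile scaling, 6 with library size only, 2 without the filter and 3 with the block, and leaving out single libraries gave 1 to 3, the 3 being without replicate 1 of processes control. In PTX cultures, 2 became 3 with upper quartile scaling (1 higher and 2 lower in place of 2 higher), 6 with library size only and 4 with the block, and leaving out single libraries gave 1 to 3; it was 1 without any of the 4 PTX libraries. The replicate block changed no other call. The larger counts with library size only stood beside a shift of all genes, and the cause was not tested for any of these settings.

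Directions turned for Ina in control cultures with upper quartile scaling (-0.15), library size only (-1.76) and at least 10 reads in every library (-0.01), and in PTX cultures with upper quartile scaling (-0.10) and library size only (-1.75). They turned for Vim in control cultures with upper quartile scaling (-0.09) and library size only (-1.70), and in PTX cultures with library size only (-1.48).

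Leaving out single libraries turned values near 0. With PTX in somata the ranges were -0.27 to 0.05 for Nefm, -0.02 to 0.14 for Vim and -0.26 to 0.39 for Nes, and in processes -0.56 to 0.27 for Nefm and -0.11 to 0.41 for Nefl. Between compartments of control cultures they were -0.04 to 0.14 for Ina, -0.02 to 0.24 for Vim and -0.34 to 0.01 for Nefh, and in PTX cultures -0.21 to 0.10 for Nefh. For the interaction they were -0.46 to 0.38 for Nefm, -0.08 to 0.28 for Nefh and -0.06 to 0.12 for Ina. Where 1 library was left, it was assumed to vary like the other conditions. Depth limited Nefh most, with 37 to 62 reads in processes.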
